A study of Mus musculus with 6 samples.

Results

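The mitosis genes described here are 40 genes that act between the end of G2 and the separation of daughter cells, taken by gene symbol out of 45777 genes listed for each tumor. They were measured by RNA sequencing of B16F10 tumors, which grow from a mouse melanoma cell line, with 3 tumors from the hind footpad and 3 from the flank skin and 1 library per tumor. The labels give 8 weeks of age and the Foxn1-/- genotype for the hosts of both groups, which therefore lack a thymus and most T cells, and name no treatment. The study's methods implant B16F10 cells in C57BL/6J mice and, for bioluminescence imaging, in Foxn1-null mice. They name neither host for the sequenced tumors, and the earlier age they give is that at implantation. The comparison asks how far the message for cell division differs between the footpad, which bears body weight, and the flank skin. The study states that other environmental factors differ between these sites too, and reports limited tumor growth in the footpad of C57BL/6J mice. Counts scaled with the TMM method of edgeR are given as CPM, the reads of a gene relative to the size of its library, and levels of different genes are compared only as FPKM, which is the deposited value per length of transcript. Between 46529649 and 66364366 reads per tumor were counted on genes, and the counts of tumors from the same site differed beyond sampling noise (chi-square per gene from 58.6 to 511). SE denotes the standard error of a fold change on the log2 scale.

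A cell enters mitosis when cyclin B and Cdk1 become active together, helped by Cdc25c and Plk1. The spindle then captures chromosomes at kinetochores while the Mad2l1 and Bub1 checkpoint holds back Cdc20, until the anaphase-promoting complex removes securin and cyclin B and the cell divides. Most of these transcripts are made in G2 under Foxm1 and the MuvB complexes and fade in G1, so that in bulk tissue their summed level follows how many cells are in G2 and M as well as the level in each cell. The labels describe RNA of excised tumors, whereas the methods of the study mention that tumor cells were isolated, by a step they do not detail. In such bulk RNA, fewer dividing cells and less of each transcript per dividing cell cannot be told apart, and the same is true of a smaller share of tumor cells.

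Most mitosis genes had lower fitted levels in footpad tumors, by less than 2-fold. All 40 passed the filter on low counts, and 37 had a negative log2 fold change of footpad against flank, or 25 when libraries were scaled to pigment genes, as described with those genes. A negative value was found for 50.3% of all genes. The median over the 40 was -0.49, where all 17210 genes tested had -0.0042. In the edgeR quasi-likelihood test with Benjamini-Hochberg adjustment, 3 of them fell at an adjusted p under 0.05, namely the spindle motor gene Kif11, the kinetochore gene Ndc80 and the checkpoint gene Mad2l1, and 0 rose, while 1.44% of all genes fell and 3.43% rose by that rule. With a fold change of 2 or more required as well, 0 were called by edgeR, as by DESeq2, and 0 had an unadjusted p under 0.05 with such a fold, against 0.872% of all genes called lower and 2.89% called higher. An unadjusted p under 0.05 with a lower level was found for 19 of the 40 and for 10.5% of all genes. All 3 footpad tumors lay below all 3 flank tumors in CPM for 17 of the 40 and for 14.9% of all genes, and the reverse held for 0 of the 40 and for 17.5% of all genes. With FPKM as deposited, the number without overlap was 8, beside 12.8% of all genes. DESeq2 placed 14 of the 40 below an adjusted p of 0.05, beside 6.08% of all genes, and they included Kif11, Ndc80 and Mad2l1.

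The levels also varied between tumors of a site. Footpad replicate 1 had the lowest level of 28 of the 40 genes and flank replicate 1 of 10, whereas flank replicate 3 had the highest level of 30. Without flank replicate 1, all 40 genes had a negative fold change and 34 did not overlap between the sites, beside 22.3% of all genes. Without footpad replicate 1, footpad replicate 3, flank replicate 2 or flank replicate 3, edgeR placed 0 of the 40 below an adjusted p of 0.05, although 13, 17, 14 and 13 had an unadjusted p under 0.05. Of all genes, 0.028%, 0%, 0.619% and 0.0559% fell at that adjusted p in these fits. The share of all genes at an unadjusted p under 0.05 was not counted in them, so the unadjusted counts have no background here. Without flank replicate 1 only Kif11 passed, beside 0.653% of all genes, and without footpad replicate 2 Bub1, Kif11, Mad2l1 and Nuf2 did, beside 1.55%.

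**Figure D1:**
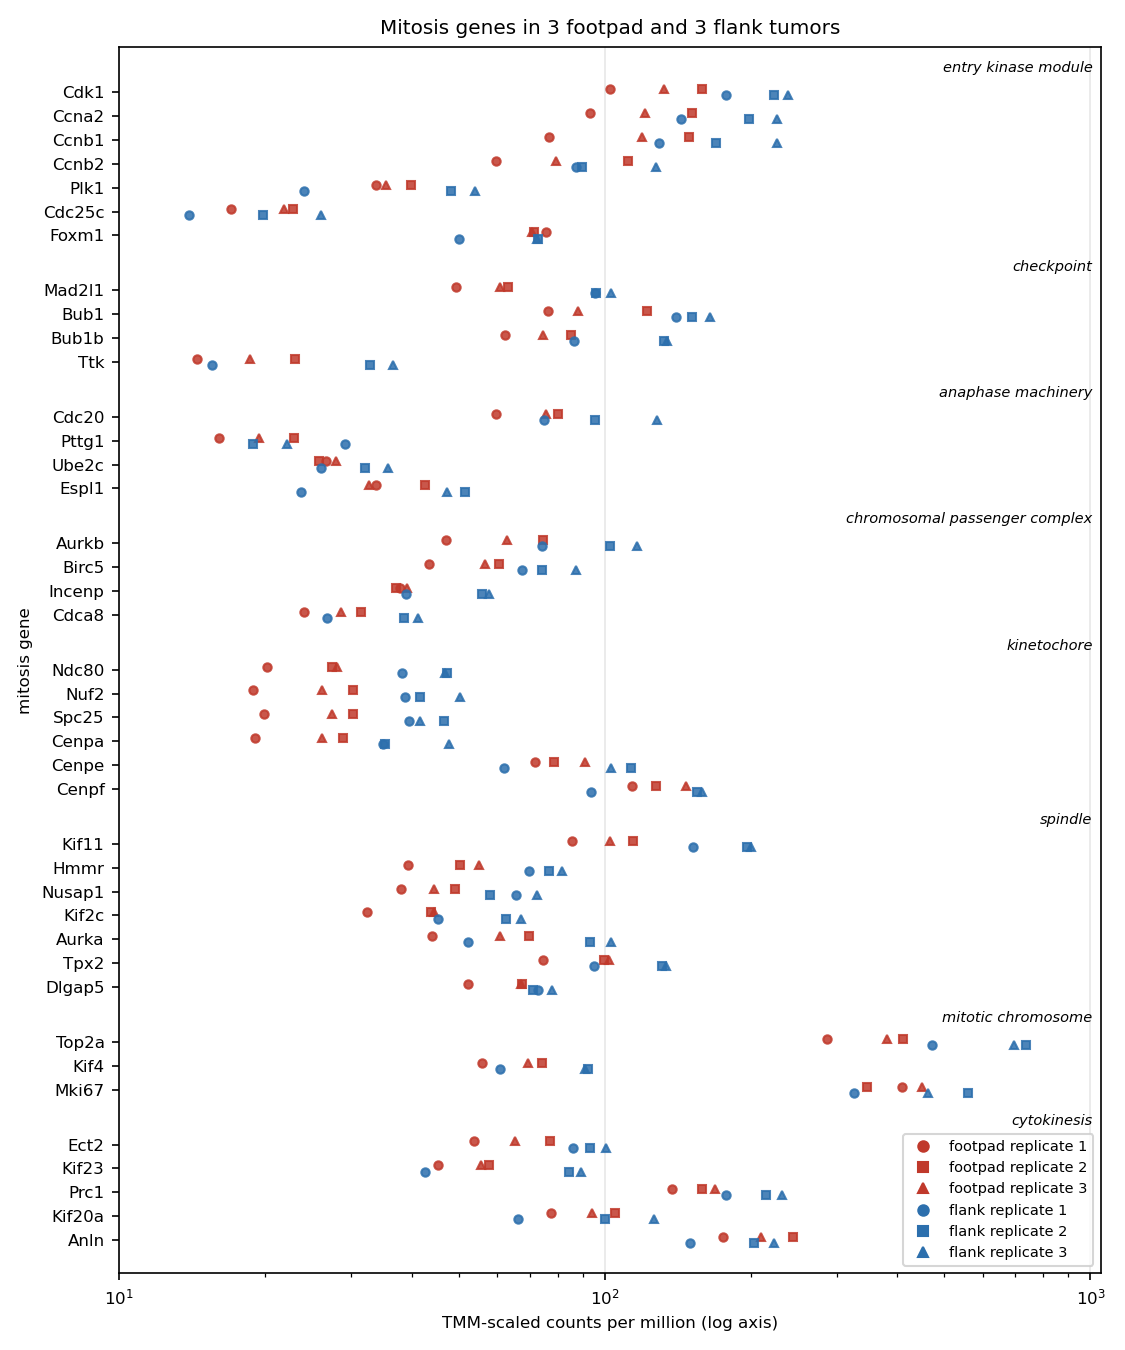
TMM-scaled CPM of the 40 mitosis genes on a log axis, grouped by role, with 1 point per tumor (red, footpad; blue, flank; symbols, replicates 1 to 3). For 17 genes the 3 red points lie left of the 3 blue points, and flank replicate 1 often lies among the red points.

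Markers of several other cell types differed between the sites. The summed level of 10 fibroblast markers was between 3022 and 4268 CPM in footpad tumors and between 105 and 478 CPM in flank tumors, and 9 of the 10 rose at an adjusted p under 0.05, with Col1a1 and Postn at log2 fold changes of 4.10 and 4.09. Of 8 endothelial markers, 3 rose (Pecam1, Emcn and Tie1), with sums from 295 to 314 CPM against 159 to 197 CPM. Positive fold changes were found for 7 of these 8 markers. The other was Cldn5, at -0.52 and between -0.94 and -0.14 without 1 tumor. Of 8 macrophage markers, 1 rose (Cd68), with sums from 129 to 145 CPM against 25.01 to 108 CPM, and of 7 tested neutrophil markers 0 had an adjusted p under 0.05 and 7 an unadjusted one in edgeR, with sums from 7.19 to 372 CPM against 4.76 to 30.8 CPM. Keratinocyte markers reached 518 CPM and skeletal muscle markers 554.8 CPM in footpad replicate 2, against at most 24.8 and 67.8 CPM in the other tumors, and Krt1 had 0 reads in flank replicate 1. Lymphocyte markers summed to between 0.224 and 0.621 CPM, and 1 of 8 was tested. Erythroid genes summed to 36260 CPM in footpad replicate 1 and 30913 CPM in flank replicate 1, the tumors that held the lowest level of most mitosis genes, and to between 1925 and 17773 CPM elsewhere. Among the 6 edgeR fits that left out 1 tumor, the adjusted p was above 0.05 for Col1a1 and Postn without footpad replicate 1, footpad replicate 3 or flank replicate 3, and for Postn also without flank replicate 1 (at most 0.0887 and 0.110), at log2 fold changes of at least 3.73 and 3.71 in all 6. Pecam1, Emcn and Cd68 kept an adjusted p under 0.05 only without footpad replicate 2, and Tie1 only without footpad replicate 2 or flank replicate 2, and otherwise it reached 0.115, 0.141, 0.148 and 0.143 for these genes in that order. The calls of all 6 genes were lost with the replicate number as a block. The part of these cells in the fall of Kif11, Ndc80 and Mad2l1 was not tested.

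Promoters were available for 32 of the 40 genes in RefSeq (GRCm38.p6), from 250 bases before to 50 bases after the transcript start, and those of Aurkb, Ccna2, Cdc25c, Dlgap5, Foxm1, Incenp, Kif20a and Tpx2 were not used here. The letters CCAAT, the core of the box that NF-Y binds, were searched on both strands, as were the letters TTTGAA, the core of the cell cycle homology region through which MuvB complexes act. Neither motif contains the other, and a match is a description of the sequence, not of binding. CCAAT stood in 24 of the 32 promoters (75%) and in 41.1% of the 27025 promoters of the table, and TTTGAA stood in 24 (75%) and in 20.2%. Both stood in 21 (65.6%), against 7.97% of the table, 34.5% of 84 other mitosis genes and 6.90% of 29 S phase genes. The stretches printed here are the 150 bases before the start for the 3 genes that fell, for Cdk1 and Mki67 as widely used measures of division, and for Anln, which did not fall, with CCAAT or TTTGAA on either strand in capitals. They lie on GRCm38.p6 at chr19:37376232-37376381 (plus strand) for Kif11, chr17:71526858-71527007 (minus) for Ndc80, chr6:66535071-66535220 (plus) for Mad2l1, chr10:69352913-69353062 (minus) for Cdk1, chr7:135716380-135716529 (minus) for Mki67 and chr9:22389207-22389356 (minus) for Anln.
Kif11: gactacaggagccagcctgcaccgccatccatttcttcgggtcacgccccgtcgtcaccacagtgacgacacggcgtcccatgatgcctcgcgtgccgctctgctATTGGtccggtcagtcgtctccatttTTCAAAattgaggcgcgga
Ndc80: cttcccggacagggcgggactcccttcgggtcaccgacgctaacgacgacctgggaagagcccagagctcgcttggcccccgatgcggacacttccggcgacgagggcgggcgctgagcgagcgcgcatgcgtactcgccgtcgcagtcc
Mad2l1: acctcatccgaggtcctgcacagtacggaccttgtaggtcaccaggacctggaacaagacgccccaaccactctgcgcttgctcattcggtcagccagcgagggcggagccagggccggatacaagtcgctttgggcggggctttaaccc
Cdk1: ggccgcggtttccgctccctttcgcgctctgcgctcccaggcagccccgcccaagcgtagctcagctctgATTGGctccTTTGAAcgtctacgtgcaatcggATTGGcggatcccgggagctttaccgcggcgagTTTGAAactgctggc
Mki67: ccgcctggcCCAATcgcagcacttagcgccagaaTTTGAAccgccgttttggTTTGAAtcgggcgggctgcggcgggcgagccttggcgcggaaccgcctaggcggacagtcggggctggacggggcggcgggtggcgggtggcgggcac
Anln: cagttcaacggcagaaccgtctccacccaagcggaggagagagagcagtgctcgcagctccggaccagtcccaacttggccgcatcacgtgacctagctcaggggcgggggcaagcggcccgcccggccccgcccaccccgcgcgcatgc
Kif11, Cdk1 and Mki67 held both motifs in this stretch, and Ndc80, Mad2l1 and Anln held neither. In the longer window TTTGAA or its complement also stood after the start in Ndc80 and Anln, and Mad2l1 held no match. The genes with both motifs had a median log2 fold change of -0.47 (from -0.86 to -0.07, n = 21) and the 5 with neither, which were Mad2l1, Pttg1, Birc5, Nuf2 and Nusap1, had -0.57 (from -0.80 to -0.27), so the ranges overlapped widely.

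Among the genes of mitotic entry, 5 of 7 had lower fitted levels in footpad tumors and 0 passed, with a median log2 fold change of -0.28. Ccnb1 encodes cyclin B1, which activates Cdk1, and was the most abundant of the 7 per transcript length, with 56.3 FPKM over all tumors. Its levels, always given in the order of replicates 1, 2 and 3, were 76.8, 149 and 119 CPM in footpad tumors and 129, 169.8 and 226 CPM in flank tumors (edgeR log2 fold change -0.60, SE 0.29, adjusted p = 0.234). Footpad replicate 2 stood above flank replicate 1, so that the sites overlapped. Cdk1, the kinase itself, was at 103, 159 and 133 CPM in footpad tumors and at 178, 223 and 238 CPM in flank tumors, without overlap (edgeR log2 fold change -0.70, SE 0.20, adjusted p = 0.0817, and 0.0105 with DESeq2). Over the alternative fits its adjusted p ran up to 0.667. Foxm1, the transcription factor that drives many G2 genes, was at 75.7, 71.6 and 71.0 CPM in footpad tumors and at 50.2, 72.8 and 72.5 CPM in flank tumors (edgeR log2 fold change 0.16, SE 0.17, adjusted p = 0.586). Its 3 footpad values and 2 of its flank values were close together, and flank replicate 1 stood low. Of the rest, Ccna2 and Ccnb2 encode the other cyclins of this step and had log2 fold changes of -0.63 and -0.28, while Plk1 and the phosphatase gene Cdc25c had -0.21 and 0.05, with adjusted p from 0.145 to 0.926.

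The spindle checkpoint delays anaphase while chromosomes are unattached, and its 4 genes had negative fold changes between -0.76 and -0.60, with a median of -0.67. Mad2l1 encodes Mad2, the protein that binds and holds Cdc20. It lies on chromosome 6 of GRCm38 from 66535221 to 66541107 and was at 49.3, 63.2 and 60.7 CPM in footpad tumors, against 95.3, 95.7 and 103 CPM in flank tumors. The sites were well apart, with a mean of 57.8 ± 7.41 CPM (SD, n = 3) against 98.0 ± 4.36 CPM, and Mad2l1 fell with a log2 fold change of -0.76 (SE 0.14, edgeR adjusted p = 0.0302). In the fits that left out 1 tumor the fold change stayed between -0.84 and -0.66, and 1 of those 6 fits kept an adjusted p under 0.05. Bub1, a kinase at the kinetochore, was at 76.4, 122 and 87.9 CPM in footpad tumors and at 140.2, 152 and 165 CPM in flank tumors, without overlap (edgeR log2 fold change -0.67, SE 0.19, adjusted p = 0.0845). Bub1b, whose product BubR1 is part of the inhibitor of Cdc20, did not overlap either (-0.67, edgeR adjusted p = 0.102), whereas Ttk, the kinase that starts the signal, did (-0.60, adjusted p = 0.296).

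The anaphase machinery on which this checkpoint acts showed smaller differences, with 4 negative fold changes between -0.47 and -0.17, 0 genes at an unadjusted p under 0.05 in edgeR or apart between the sites, and 0 at an adjusted p under 0.05 in DESeq2. Cdc20 activates the anaphase-promoting complex, and was at 59.6, 80.0 and 75.6 CPM in footpad tumors and at 74.9, 95.4 and 128 CPM in flank tumors (edgeR log2 fold change -0.47, SE 0.22, adjusted p = 0.223). Its footpad values reached into the range of the flank tumors. Ube2c, the ubiquitin-conjugating enzyme of that complex, had a log2 fold change of -0.22, securin (Pttg1) had -0.27 and separase (Espl1), the protease that opens the cohesin ring, had -0.17. Espl1 was also the least abundant of the 40 genes per length, at 5.18 FPKM.

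The chromosomal passenger complex corrects faulty attachments, with Aurkb as its kinase and Incenp, Birc5 and Cdca8 as its scaffold. All 4 had negative fold changes, from -0.67 in Aurkb to -0.34 in Cdca8, and 0 passed an adjusted p of 0.05 in edgeR while 3 had an unadjusted p under 0.05 and 1, Aurkb, passed in DESeq2. Birc5, which encodes survivin and was the most abundant of them at 55.6 FPKM, was at 43.4, 60.5 and 56.6 CPM in footpad tumors and at 67.4, 74.2 and 87.3 CPM in flank tumors (edgeR log2 fold change -0.51, SE 0.17, adjusted p = 0.118). It was the 1 member of the complex whose sites did not overlap.

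The kinetochore genes divided into a set with lower levels and a pair of genes with fold changes closer to 0. Ndc80, Nuf2 and Spc25 encode subunits of one complex, the Ndc80 complex, which grips the ends of microtubules. Ndc80, on chromosome 17 from 71496100 to 71526857, was at 20.2, 27.4 and 28.1 CPM in footpad tumors and at 38.2, 47.4 and 47.0 CPM in flank tumors. Every footpad tumor was below every flank tumor, and Ndc80 fell with a log2 fold change of -0.81 (SE 0.17, edgeR adjusted p = 0.0447). Its adjusted p was 0.0510 without a filter on low counts, and between 0.0543 and 0.139 in the 6 edgeR fits that left out 1 tumor. Nuf2 was at 18.8, 30.3 and 26.2 CPM in footpad tumors and at 38.7, 41.7 and 50.4 CPM in flank tumors (edgeR log2 fold change -0.80, SE 0.20, adjusted p = 0.0645). Spc25 was at 19.8, 30.3 and 27.5 CPM against 39.5, 46.6 and 41.6 CPM (edgeR log2 fold change -0.72, SE 0.18, adjusted p = 0.0634). In each of these subunit genes footpad replicate 1 was the lowest tumor and the sites did not overlap. Cenpa, the histone variant that marks the centromere, had a log2 fold change of -0.67 (edgeR adjusted p = 0.0977) without overlap. Cenpe, a kinesin at the kinetochore, and Cenpf, a large coiled-coil protein, had -0.21 and -0.07 (adjusted p = 0.614 and 0.878), and flank replicate 1 was the lowest tumor for both.

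All 7 spindle genes had negative fold changes, with a median of -0.54, and 5 of them did not overlap between the sites. In CPM, 14.9% of all genes had every footpad tumor below every flank tumor. Kif11 encodes Eg5, the motor that pushes the spindle poles apart. The gene lies on chromosome 19 from 37376382 to 37421863 and was at 85.7, 114 and 102 CPM in footpad tumors, against 152, 196 and 200.002 CPM in flank tumors. It had the most negative fold change of the 40 genes and fell to 55.2% of the flank mean, from 183 ± 26.7 to 101 ± 14.3 CPM (SD, n = 3; edgeR log2 fold change -0.86, SE 0.17, adjusted p = 0.0381). In the fits that left out 1 tumor the value was between -0.98 and -0.76, and 2 of those 6 fits kept an adjusted p under 0.05. Aurka, the kinase of the spindle poles and the most abundant spindle gene at 33.3 FPKM, was at 44.0, 69.9 and 60.9 CPM in footpad tumors and at 52.3, 93.0 and 103 CPM in flank tumors (edgeR log2 fold change -0.51, SE 0.28, adjusted p = 0.297). Flank replicate 1 again lay within the footpad range. Hmmr and Nusap1, which bind spindle microtubules, had log2 fold changes of -0.65 and -0.57 (edgeR adjusted p = 0.0578 and 0.0680) and did not overlap. Kif2c, a motor that shortens microtubules, had -0.54 and Dlgap5, which stabilizes spindle fibers, had -0.25, both without overlap, and the Aurka activator Tpx2 had -0.38 with overlap (adjusted p from 0.146 to 0.317).

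Top2a and Mki67 are both common measures of proliferation and had fold changes of unlike size. Top2a encodes the topoisomerase that untangles sister chromatids and was the most abundant of the 40 genes, at 85.8 FPKM. It was at 287, 411 and 381 CPM in footpad tumors and at 472, 737 and 696 CPM in flank tumors, without overlap (edgeR log2 fold change -0.82, SE 0.22, adjusted p = 0.0760, 0.00440 with DESeq2 and up to 0.546 over the alternatives). Mki67, which encodes the Ki-67 protein that coats mitotic chromosomes, was at 409.9, 346 and 449 CPM in footpad tumors and at 326, 561 and 463 CPM in flank tumors (edgeR log2 fold change -0.16, SE 0.22, adjusted p = 0.677). The lowest and the highest of its 6 values were both from flank tumors. Kif4, a chromosome-bound motor, had -0.29 (adjusted p = 0.396).

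In cytokinesis, where the cell is pinched apart, 4 of 5 genes had negative fold changes and 0 passed. Prc1 bundles the microtubules of the central spindle. It was at 138, 159 and 168 CPM in footpad tumors and at 177, 215 and 232 CPM in flank tumors, without overlap (edgeR log2 fold change -0.42, SE 0.16, adjusted p = 0.145). Ect2, the exchange factor that activates RhoA at the furrow, had a log2 fold change of -0.51 without overlap (adjusted p = 0.106), and Kif23 and Kif20a, motors of the midzone, had -0.45 and -0.08 with overlap. Anln, which encodes the actin-binding scaffold anillin, was at 175, 244 and 209.6 CPM in footpad tumors and at 149.9, 203 and 223 CPM in flank tumors (edgeR log2 fold change 0.13, SE 0.20, adjusted p = 0.715). Its highest value was from a footpad tumor and its lowest from a flank tumor.

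Fold changes thus spanned a range within a role, and a ratio of 2 genes within a tumor shows such a range without the size of the library. For each role the FPKM of the gene with the lowest fold change was divided by that of the gene with the highest, and because the pairs were chosen from these values the ratios are given as a description. The ratio of Cdk1 to Foxm1 was 1.36, 2.22 and 1.88 in footpad tumors and 3.56, 3.07 and 3.301 in flank tumors. Ndc80 over Cenpf was 0.896, 1.06 and 0.960 against 2.06, 1.54 and 1.497, and Top2a over Mki67 was 1.34, 2.28 and 1.63 against 2.76, 2.51 and 2.89. The ratios of Aurkb to Cdca8, Kif11 to Dlgap5 and Ect2 to Anln did not overlap between the sites either, and those of Mad2l1 to Ttk and Cdc20 to Espl1 did.

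**Figure D2:**
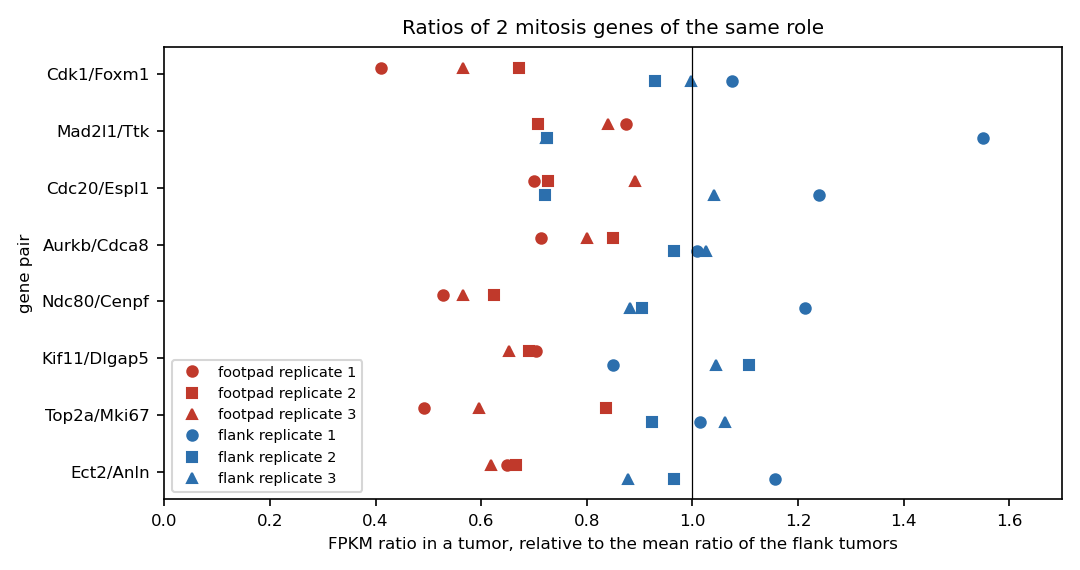
FPKM ratio of the gene with the lowest to the gene with the highest fold change in each of 8 roles, divided by the mean ratio of the flank tumors (linear axis, 1 point per tumor). The sites do not overlap for 6 of the 8 pairs, which were chosen from these values.

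Pigment genes were used as a measure of melanoma RNA. Pmel encodes the protein of melanosome fibrils and Tyrp1 and Dct encode enzymes of melanin synthesis. Their log2 fold changes were -0.23, -0.58 and -0.50 (edgeR adjusted p = 0.670, 0.271 and 0.379), and the sites overlapped for each. In a list of 11 pigment and lineage genes that holds them, 10 fold changes were negative and 1 was positive. These ran from -1.14 in Tyr to 0.11 in Sox10, with 0 at an adjusted p under 0.05 and 1 at an unadjusted one in edgeR. Pmel was at 2400.0, 4513 and 3094 CPM in footpad tumors and at 5046, 2898 and 3788 CPM in flank tumors. Tyrp1 was at 3070.3, 5262 and 3996 CPM against 8326, 4958 and 5083 CPM, and Dct was at 2995, 5332 and 3708 CPM against 7992, 4059.9 and 4962 CPM. In all 3 genes flank replicate 1 was the highest and footpad replicate 1 the lowest tumor. Together these 3 genes took 0.810%, 1.56% and 1.10% of the counts in footpad tumors and 1.98%, 1.28% and 1.37% in flank tumors. The 40 mitosis genes took 0.270%, 0.379% and 0.355% in footpad tumors and 0.331%, 0.528% and 0.510% in flank tumors. Footpad replicate 1 was the lowest tumor in both shares, whereas flank replicate 1 was the highest in pigment genes and the lowest flank tumor in mitosis genes.

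The summed FPKM of the 40 genes relative to that of the 3 pigment genes was 0.229, 0.177 and 0.227 in footpad tumors and 0.126, 0.290 and 0.276 in flank tumors. The means were 0.211 ± 0.0297 and 0.230 ± 0.0911 (SD, n = 3), a quotient of 0.916, and the footpad values lay inside the flank range. Without flank replicate 1 the quotient was 0.746 and without flank replicate 2 it was 1.05, so that its direction rested on single tumors. With library sizes set to the counts of Pmel, Tyrp1 and Dct, the median log2 fold change of all genes was 0.44 and that of the mitosis genes -0.12, which is 0.56 below it. In that fit 25 of the 40 genes had a negative fold change, beside 16.4% of all genes. The most negative was Kif11 at -0.48 and the most positive Foxm1 at 0.56, with 0 genes at an adjusted or unadjusted p under 0.05 in edgeR and a lowest adjusted p of 0.491. The standard errors were larger than with TMM scaling, for Kif11 0.39 against 0.17. Whether pigment genes keep the same level per melanoma cell at both sites was not tested.

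**Figure D3:**
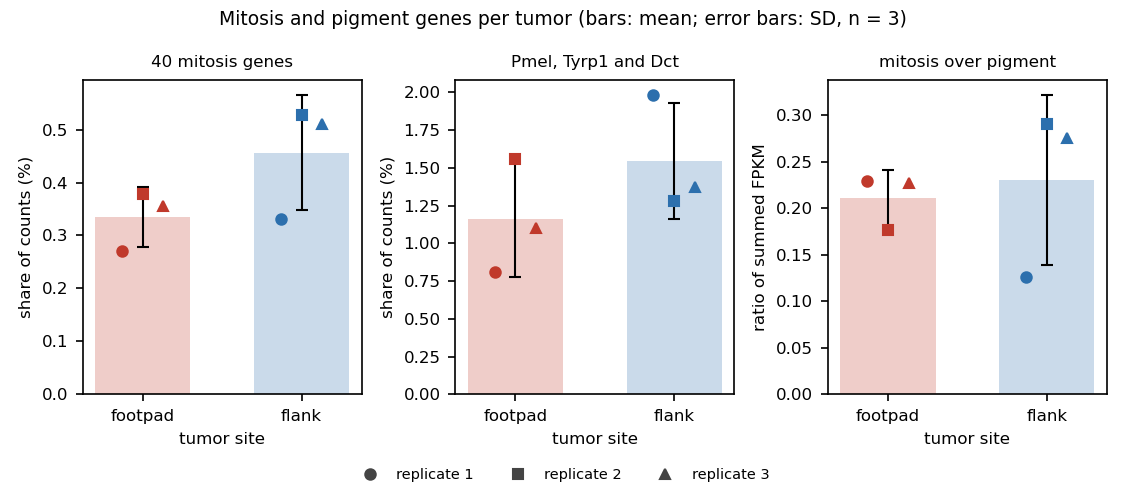
Share of counts on the 40 mitosis genes and on Pmel, Tyrp1 and Dct (percent), and the ratio of their summed FPKM, in each of 3 footpad (red) and 3 flank (blue) tumors, with bars for means and error bars for SD. The ratio in footpad tumors, from 0.177 to 0.229, lies inside the flank range from 0.126 to 0.290.

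**Figure D4:**
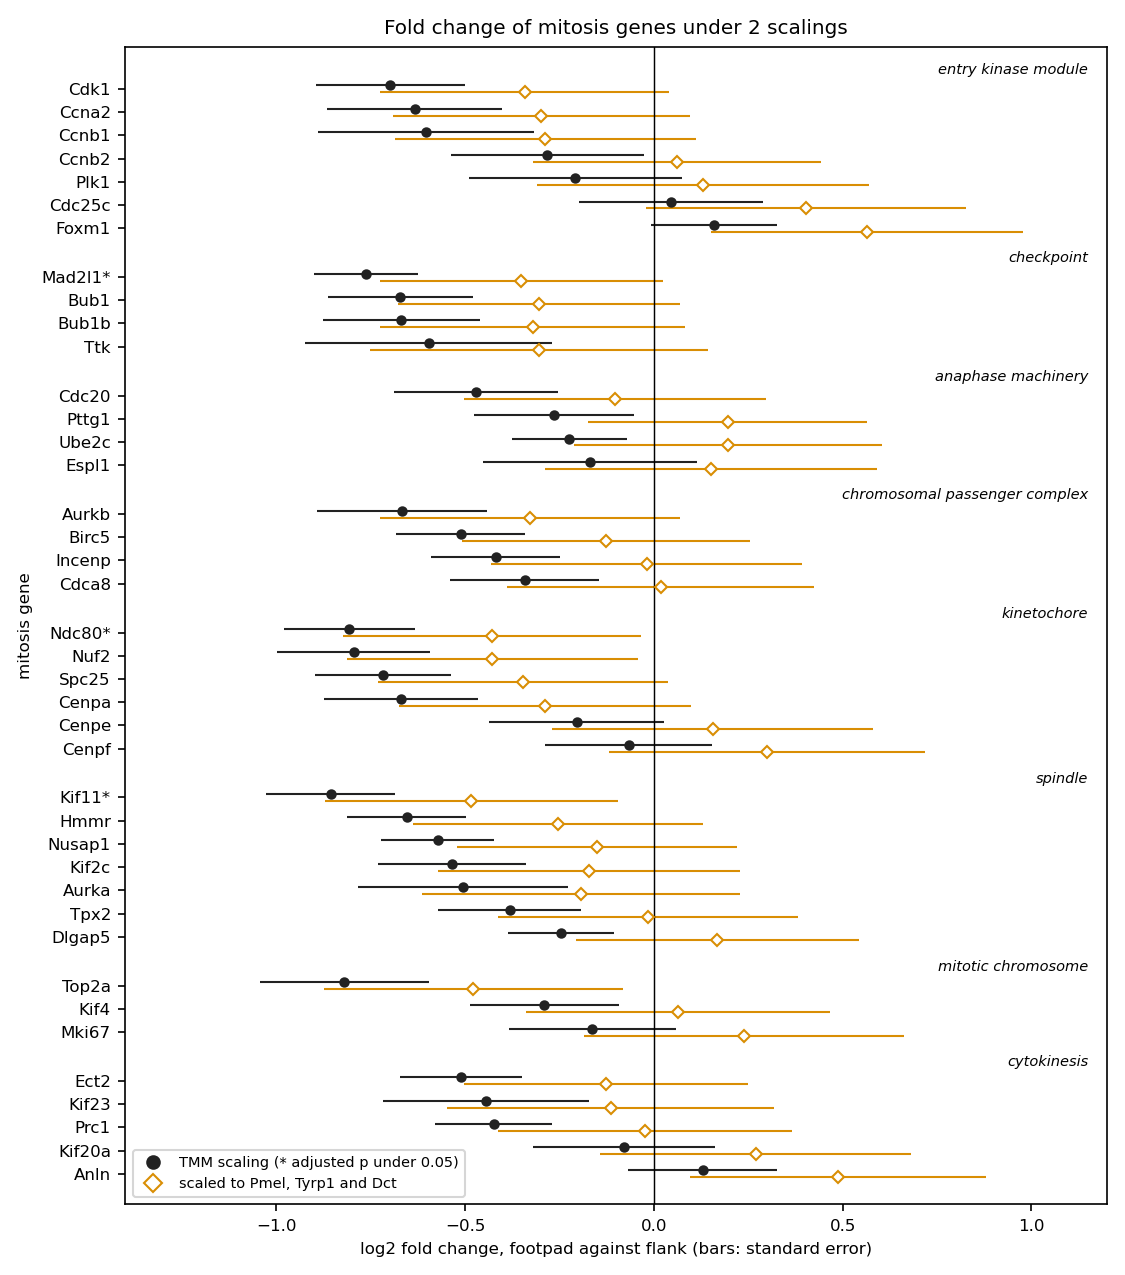
Log2 fold change of footpad against flank with its standard error for each mitosis gene, with TMM scaling (black) and with library sizes set to Pmel, Tyrp1 and Dct (orange). With TMM scaling 37 of 40 values are negative and 3 (asterisks) have an adjusted p under 0.05, and with pigment scaling 25 are negative and 0 pass.

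Further genes of the mitotic apparatus showed a similar range. Of 101 other mitosis genes, 95 had negative fold changes, with a median of -0.41, 7 fell at an adjusted p under 0.05, 0 rose and 55 had all footpad tumors below all flank tumors. Among these 7, the largest changes named here were those of the cohesin acetyltransferase gene Esco2 (-1.08, edgeR adjusted p = 0.0234), the spindle gene Psrc1 (-1.06, 0.0192), the condensin subunit gene Ncapg (-0.98, 0.0141), the checkpoint gene Kntc1 (-0.91, 0.0340) and the midbody gene Shcbp1 (-0.90, 0.0364). Each of these named genes had an edgeR adjusted p above 0.05 without footpad replicate 1, footpad replicate 3 or flank replicate 3. The same held with the replicate number as a block and with scaling to pigment genes. Fbxo5, whose product restrains the anaphase-promoting complex, also fell in the main fit and is named after its values were seen. Of 30 other kinetochore and cohesion genes, 30 had negative fold changes and 25 did not overlap, with a median of -0.58, beside the median of -0.69 over the 6 kinetochore genes of the mitosis list. Of all genes, 50.3% had a negative fold change, and 1.44% fell and 3.43% rose at an adjusted p under 0.05 in edgeR. All footpad tumors lay below all flank tumors for 14.9% of all genes.

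Genes of DNA replication, the step before G2, were compared in the same way. All 35 S phase genes had negative fold changes, with a median of -0.50, and 1 fell, the primase gene Prim1 (-0.80, edgeR adjusted p = 0.0467). Of all genes, 50.3% had a negative fold change and 1.44% fell at an adjusted p under 0.05 in edgeR. The summed FPKM of the 40 mitosis genes relative to that of the S phase genes was 1.04, 0.934 and 1.04 in footpad tumors and 0.935, 0.909 and 0.965 in flank tumors, and the sites overlapped. Of 19 genes of cell cycle transcription (E2F, MuvB, pocket protein and NF-Y genes), 0 had an adjusted p under 0.05 and 3 an unadjusted one in edgeR, with a median of -0.19. Among 12 tested brakes and G1 drivers, Cdkn2b, which encodes the Cdk4 inhibitor p15, lay between 0.0862 and 0.188 CPM in flank tumors and between 0.735 and 0.876 CPM in footpad tumors. With 5, 11 and 7 reads in the flank tumors it passed the filter through its footpad counts, and its log2 difference was 2.61 in edgeR (adjusted p = 0.0335, and between 0.0530 and 0.132 without 1 tumor) but 1.78 on log2(FPKM + 0.1) and 0.48 on log2(FPKM + 1). Cdk4 fell from between 243 and 264 CPM to between 134 and 156 CPM (-0.77, edgeR adjusted p = 0.0253). Its adjusted p was between 0.0398 and 0.119 without 1 tumor, and with scaling to pigment genes its log2 fold change was -0.34 (edgeR adjusted p = 0.661).

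**Figure D5:**
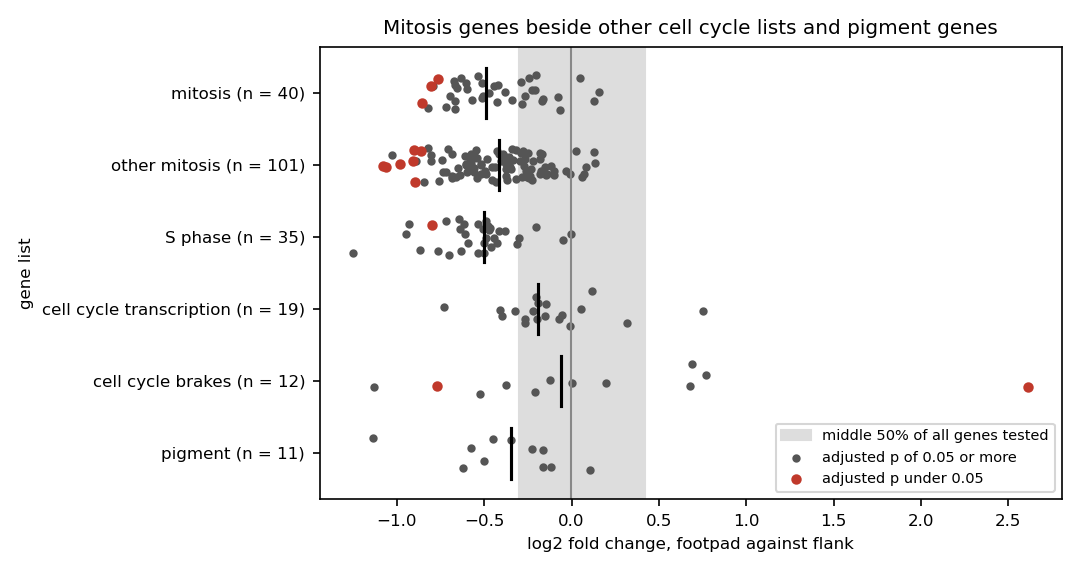
Log2 fold change of footpad against flank for the tested genes of the mitosis list, 4 other cell cycle lists and the pigment list, with 1 point per gene, red where the adjusted p is under 0.05, a black line at each median and a grey band over the middle 50% of all genes tested. The medians of the mitosis, other mitosis, S phase and pigment lists, at -0.49, -0.41, -0.50 and -0.35, lie below the band.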

How the data were processed

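Total RNA of 3 footpad and 3 flank tumors was sequenced with a TruSeq stranded kit. The labels name removed tumors as the source, and the study's methods isolated tumor cells, by a step not given in the sources used here. Per the submitters' processing notes, reads were checked with FastQC 0.11.7, trimmed with Trimmomatic and aligned to mm10 with HISAT2 2.1.0. The authors deposited raw counts of reads for every gene and, separately, FPKM values, which divide by transcript length and library size. The program that counted reads, its use of strand and its treatment of reads shared by gene copies are not given in the sources used here, so members with near-identical copies are uncertain. Groups came from the labels. A figure legend of the study counts mice for these data, but neither labels nor methods tie a library to a mouse, so p-values measure the spread between these tumors.

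Counts were analysed with edgeR 4.0.16 in R 4.3.3 (TMM, filterByExpr, which kept 17210 genes, glmQLFit and glmQLFTest, Benjamini-Hochberg adjustment over all genes tested), and the study's thresholds were an adjusted p under 0.05 and a fold of 2. The standard error is the log2 fold change divided by the square root of F. The common coefficient of biological variation was 0.338, and its size beside counting error was not tested gene by gene. Alternatives were DESeq2 1.42.0, limma 3.58.1 on log2(FPKM + 1) and log2(FPKM + 0.1), upper-quartile and DESeq2 size factors, no filter or a minimum of 10 reads in every tumor, the replicate number as a block, scaling to Pmel, Tyrp1 and Dct, and leaving out each tumor. Leaving out tumors from the ratio to pigment genes was added after the data were seen. Of the genes listed, 45679 matched RefSeq by identifier.

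The members and lists were chosen with earlier results of these data known. Values per tumor are given for members past an adjusted p of 0.05, the 8 with the largest change, the most abundant by FPKM in each role, and Mki67, Top2a, Ccnb1, Cdk1 and Foxm1, and at most 5 genes past that threshold in each other list, apart from Fbxo5 and Krt1, which were named after their values were seen. One result is not reported here. Protein motifs were not analysed here. Figures were drawn in Python 3.11.15 with matplotlib 3.10.9.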

Additional observations from a re-analysis of the deposited data

How the results depend on the processing

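The 40 mitosis genes had a negative median log2 fold change in every alternative fit, with a lowest and highest value of -0.59 and -0.34 when 1 tumor was left out and -0.12 with scaling to pigment genes, and 0 had both a fold of 2 and an adjusted p under 0.05 in any of them, or an unadjusted p under 0.05 with such a fold. The number past an adjusted p of 0.05 was 14 with DESeq2, 0 with either limma fit (14 and 15 at an unadjusted p under 0.05), 0 with pigment scaling (0 unadjusted), and between 0 and 4 without 1 tumor. The number of all genes called was 1506 with DESeq2, 366 with limma on log2(FPKM + 1), 1083 with pigment scaling and between 0 and 836 without 1 tumor, the 0 being the edgeR fit without footpad replicate 3, where 1879 genes had an unadjusted p under 0.05 and a fold of 2. For the other mitosis genes the number past an adjusted p was 35 with DESeq2, 3 and 4 with limma, 0 with pigment scaling (0 unadjusted) and between 0 and 9 without 1 tumor. For S phase genes it was 12 with DESeq2, 2 with upper-quartile scaling, 3 with at least 10 reads in every tumor, 0 without a filter (20 unadjusted), 0 with pigment scaling (1 unadjusted), 0 with either limma fit (12 and 13 unadjusted) and between 0 and 4 without 1 tumor. Of all genes, 6.08% fell at an adjusted p under 0.05 with DESeq2, and between 0% and 1.55% without 1 tumor. That share was not counted in the other alternative fits. The share of all genes at an unadjusted p under 0.05, whatever the fold, was not counted in any alternative fit. Members without overlap numbered 8 in FPKM, beside 12.8% of all genes, and between 17 and 34 without 1 tumor. The 34 came without flank replicate 1, beside 22.3% of all genes, against 14.9% with all tumors. Leaving out a tumor cannot lower such a count, and the share of all genes was not counted without any other tumor. The quotient of mitosis over pigment FPKM was between 0.746 and 1.05 without 1 tumor, 0.944 from counts and 0.907 over 11 pigment genes. Mki67 turned to 0.24 with pigment scaling and to 0.021 without flank replicate 2 (lowest value without 1 tumor -0.35), Pmel turned to 0.21 with pigment scaling, and Foxm1 turned to -0.0021 without flank replicate 1 (highest value without 1 tumor 0.24), and none of these values passed an adjusted p of 0.05. The cause of these differences between fits was not tested.

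With the replicate number as a block, 0 mitosis genes, 0 other mitosis genes, 0 S phase genes and 0 of all genes passed in edgeR (22, 52 and 28 of the lists at an unadjusted p under 0.05, and 1791 of all genes at an unadjusted p under 0.05 with a fold of 2). The share of all genes at an unadjusted p under 0.05, whatever the fold, was not counted in that fit. No label ties equal numbers to 1 mouse, so the main fit did not pair tumors by number. The deviations of equally numbered tumors correlated by 0.05, -0.10 and -0.11. With 3 tumors per site, and markers of other tissues high in single tumors, these correlations cannot decide whether equal numbers share a mouse. The study's methods graft several sites of each mouse, so tumors of both sites may share hosts in a way that the numbers do not show. No tumor correlated best with the tumor of its own number at the other site. Footpad replicates 1, 2 and 3 correlated best with flank replicates 2, 3 and 1, by 0.13, 0.26 and 0.11. Whether these tumors shared a host was not tested. With 3 tumors per site, the spread between tumors limits what can be seen of differences under 2-fold, and the part of depth was not tested.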
